A study of Mustela putorius furo with 9 samples.

Results

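Prefoldin is a chaperone of the cytosol whose subunits are encoded here by 6 genes, PFDN1, PFDN2, PFDN4, PFDN5, PFDN6 and VBP1. The 6 rows were picked by symbol from the deposited table of 28494 genes. The gene set was proposed with results of these data in view: PFDN6 and PFDN2 stood among the largest differences between PBS1 and Ep2. The values of the 6 genes are therefore given as a description, with no p-value, in every comparison, since all 3 comparisons share libraries. All 6 passed the filter on low values, which kept 11840 genes.

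The study measured transcripts by RNA sequencing in NBL-7 cells, which the labels call ferret lung epithelial cells, grown in DMEM with FBS, in a study of particulate matter. The 9 libraries form 3 groups of 3. Ep1 is labelled untreated, Ep2 is labelled as treated with 250 µg/mL particulate matter, and PBS1 is labelled as treated with 500 µg/mL. The title of that group, PBS1, would more often be read as a buffer vehicle, so its title and its treatment label disagree, and each group is named here by its title. No label says that the 3 libraries of a group are separate cultures, so errors and p-values measure only how these libraries vary, and that variation may be technical.

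Prefoldin is a complex of alpha-type and beta-type subunits from which long coiled-coil arms hang. The arms hold unfolded actin and tubulin as they leave the ribosome and hand them to the chaperonin CCT, a closed barrel in which they fold. PFDN5 and VBP1, which encodes the subunit also called prefoldin 3, are the alpha type, and PFDN1, PFDN2, PFDN4 and PFDN6 are the beta type. In human cells PFDN2 and PFDN6 have another place of work: they also belong to the prefoldin-like module, with URI1, UXT and PDRG1, which joins the R2TP complex in the assembly of RNA polymerases and other large complexes.

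Libraries held 12469850 to 13533481 fragments, worked out from the deposited values. The epithelial label rests on few defining markers: CDH1, EPCAM and KRT18 were below 1 FPKM in every library, EPCAM at 0 in all, while KRT8 and KRT19 were above 100 FPKM. The 5 epithelial markers summed to 321 to 419 FPKM over the Ep1 libraries, 297 to 315 FPKM over Ep2 and 412 to 459 FPKM over PBS1. The lung marker NKX2-1 averaged 14.4, 9.35 and 14.9 FPKM in Ep1, Ep2 and PBS1, and 3 of the 5 lung markers were below 1 FPKM in all libraries. Of other cell types, 3 of 5 fibroblast, 4 of 5 endothelial and 4 of 5 leukocyte markers were below 1 FPKM in all libraries. Fibroblast markers summed to 2.79 to 3.60, 2.44 to 3.15 and 1.95 to 3.65 FPKM, endothelial ones to 11.99 to 13.0, 13.9 to 15.98 and 15.6 to 17.7 FPKM, and leukocyte ones to 1.75 to 2.75, 1.46 to 2.77 and 1.52 to 2.17 FPKM in Ep1, Ep2 and PBS1. The endothelial sum was nearly all TEK, which averaged 12.5, 15.2 and 16.6 FPKM in Ep1, Ep2 and PBS1. TEK was called higher in Ep2 minus Ep1, at 0.26 (SE 0.07, limma adjusted p = 0.0245), and in neither other comparison. Its difference was larger in PBS1 minus Ep1, at 0.38 (SE 0.07, limma adjusted p = 0.0606), where 0.144% of all tested genes were called. Ep1_1 stood apart from its group: over all tested genes its root mean square log2 distance was 0.243 and 0.265 to Ep1_2 and Ep1_3, but 0.229, 0.219 and 0.200 to columns PBS1, PBS2 and PBS3. The subunit differences that rest on Ep1 are therefore given with and without it.

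The 6 subunits did not share one pattern. PFDN2 and PFDN6 were lowest in the Ep2 libraries and highest in the PBS1 libraries, over a wide range, while VBP1 and PFDN4 kept within a narrow range and had their highest mean in Ep2. PFDN5 was lower in Ep2 by a small amount, and PFDN1 was the least abundant and the most irregular between libraries of a group. Levels are in FPKM, fragments scaled by gene length and by library size, so they can be set against each other between genes. In bulk RNA, fewer cells of a kind and less RNA per cell cannot be told apart. Differences are those of mean log2(FPKM + 1), where the added 1 shrinks the change of low genes, with standard errors (SE) from a limma fit over all 9 libraries.

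**Figure D1:**
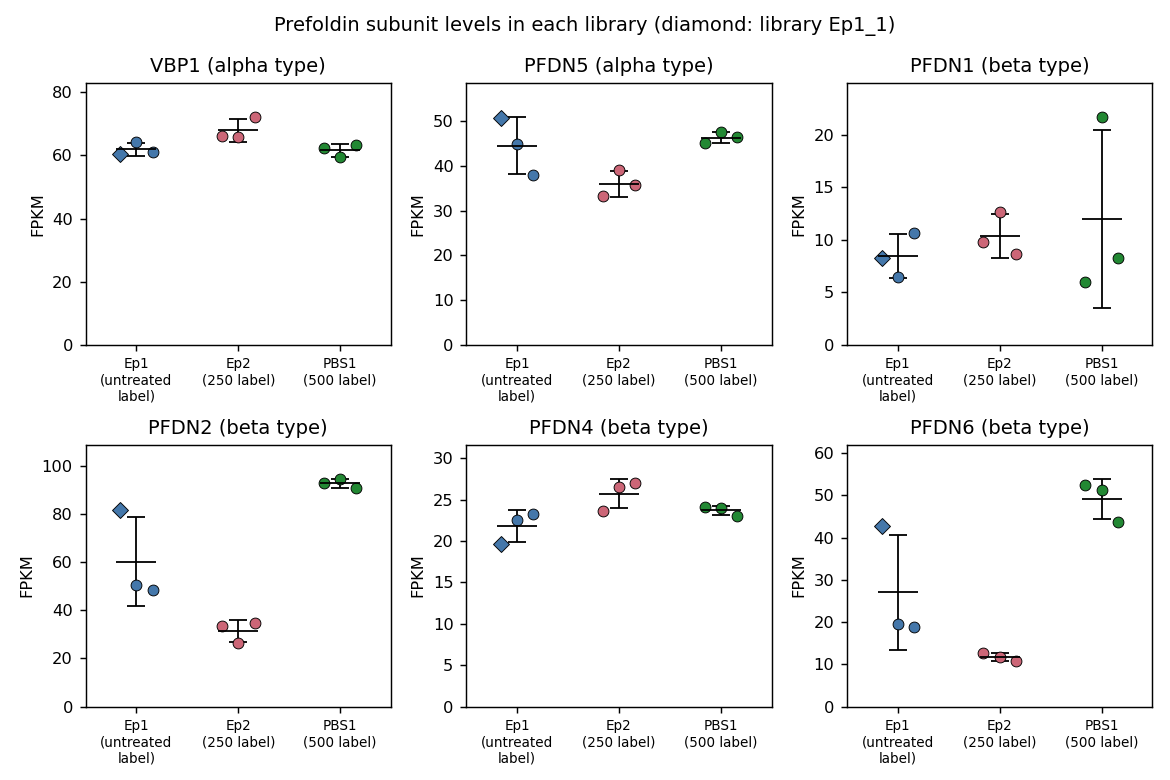
Level of each prefoldin subunit gene in FPKM in the 3 libraries of Ep1 (untreated label), Ep2 (250 µg/mL label) and PBS1 (500 µg/mL label); points are libraries, bars are mean ± SD, and the diamond is Ep1_1. PFDN2 and PFDN6 separate Ep2 from PBS1, and their Ep1_1 values of 81.6 and 42.7 FPKM stand near PBS1, while VBP1 and PFDN4 change little.

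PFDN6, a beta-type subunit shared with the prefoldin-like module, varied most, 4.89-fold between its highest and lowest library. It measured 42.7, 19.6 and 18.8 FPKM in Ep1_1, Ep1_2 and Ep1_3, 12.6, 11.8 and 10.7 FPKM in Ep2_1, Ep2_2 and Ep2_3, and 52.5, 51.2 and 43.6 FPKM in columns PBS1, PBS2 and PBS3. All Ep2 libraries lay below all Ep1 libraries, and all PBS1 libraries lay above them, although column PBS3 was only just above Ep1_1. The mean was 27.0 ± 13.5 FPKM in Ep1, 11.7 ± 0.927 FPKM in Ep2 and 49.1 ± 4.82 FPKM in PBS1 (SD, n = 3 each). The difference was 1.97 (SE 0.24) for PBS1 minus Ep2, -1.04 (SE 0.24) for Ep2 minus Ep1 and 0.93 (SE 0.24) for PBS1 minus Ep1. On the linear scale the PBS1 mean was 4.19 times the Ep2 mean.

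PFDN2, the other subunit shared with that module, followed the same order at a higher level. It measured 81.6, 50.4 and 48.5 FPKM in Ep1_1, Ep1_2 and Ep1_3, 33.4, 26.3 and 34.9 FPKM in Ep2_1, Ep2_2 and Ep2_3, and 92.8, 94.5 and 90.7 FPKM in columns PBS1, PBS2 and PBS3. The 3 groups did not overlap, and Ep1_1 again stood closer to the PBS1 libraries than to the other two Ep1 libraries. Means were 60.1 ± 18.6 FPKM in Ep1, 31.5 ± 4.60 FPKM in Ep2 and 92.7 ± 1.90 FPKM in PBS1 (SD, n = 3 each). PBS1 minus Ep2 was 1.54 (SE 0.17), Ep2 minus Ep1 was -0.88 (SE 0.17) and PBS1 minus Ep1 was 0.66 (SE 0.17). The ratio of the PBS1 mean to the Ep2 mean was 2.94.

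VBP1 encodes an alpha-type subunit that was first described through its binding to the tumour suppressor VHL. It measured 60.6, 64.3 and 61.1 FPKM in Ep1_1, Ep1_2 and Ep1_3, 66.0, 65.8 and 72.3 FPKM in Ep2_1, Ep2_2 and Ep2_3, and 62.3, 59.4 and 63.2 FPKM in columns PBS1, PBS2 and PBS3. The Ep2 libraries were the highest, and the highest of all 9 libraries was 1.22 times the lowest. Ep2 minus Ep1 was 0.13 (SE 0.06), PBS1 minus Ep1 was -0.01 (SE 0.06) and PBS1 minus Ep2 was -0.14 (SE 0.06).

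PFDN5, the second alpha-type subunit, is also known as a binding partner of the transcription factor MYC. It measured 50.9, 44.9 and 38.0 FPKM in Ep1_1, Ep1_2 and Ep1_3, 33.2, 39.0 and 35.7 FPKM in Ep2_1, Ep2_2 and Ep2_3, and 45.1, 47.5 and 46.4 FPKM in columns PBS1, PBS2 and PBS3. Ep1_3 fell within the range of Ep2, and Ep1 spanned the whole range of PBS1, whereas PBS1 lay above Ep2 throughout. Ep2 minus Ep1 was -0.30 (SE 0.10), PBS1 minus Ep1 was 0.06 (SE 0.10) and PBS1 minus Ep2 was 0.36 (SE 0.10).

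PFDN4, a beta-type subunit, measured 19.6, 22.6 and 23.3 FPKM in Ep1_1, Ep1_2 and Ep1_3, 23.7, 26.6 and 27.0 FPKM in Ep2_1, Ep2_2 and Ep2_3, and 24.1, 24.0 and 23.0 FPKM in columns PBS1, PBS2 and PBS3. Ep1_1 held the lowest value, the opposite of its place for PFDN2 and PFDN6, and Ep2 lay just above Ep1 with PBS1 across both. Ep2 minus Ep1 was 0.23 (SE 0.08), PBS1 minus Ep1 was 0.12 (SE 0.08) and PBS1 minus Ep2 was -0.11 (SE 0.08).

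PFDN1, the remaining beta-type subunit, was the lowest in mean level. It measured 8.23, 6.44 and 10.7 FPKM in Ep1_1, Ep1_2 and Ep1_3, 9.75, 12.6 and 8.64 FPKM in Ep2_1, Ep2_2 and Ep2_3, and 5.94, 21.7 and 8.31 FPKM in columns PBS1, PBS2 and PBS3. Column PBS2 stood apart from every other library, and the 3 groups overlapped. PBS1 minus Ep2 was 0.02 (SE 0.35), and it was -0.48 (SE 0.20) without column PBS2. PBS1 minus Ep1 likewise was 0.29 (SE 0.35) with that column and -0.21 (SE 0.20) without it. Ep2 minus Ep1, at 0.27 (SE 0.35), does not use the column's value except through the shared spread.

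The depth behind these values differed between subunits. Fragments worked out from the deposited values ranged from 1230 to 1477 for VBP1 and from 276 to 982 for PFDN2. PFDN6 had 430, 202 and 186 fragments in Ep1_1, Ep1_2 and Ep1_3, and between 102 and 126 in the Ep2 libraries. The exact Poisson 95% interval of PFDN6 was 38.7 to 46.9 FPKM in Ep1_1 and 17.0 to 22.5 FPKM in Ep1_2, so counting error did not bridge these libraries. PFDN1 had 59, 214 and 86 fragments in columns PBS1, PBS2 and PBS3, with an interval of 18.9 to 24.8 FPKM in column PBS2 and of 6.65 to 10.3 FPKM in column PBS3. These intervals cover counting error only. Within a group, the chi-square per degree of freedom against pure counting was 68.4 for PFDN6 and 61.8 for PFDN2 in Ep1 and 60.3 for PFDN1 in PBS1. It lay between 0.153 and 7.83 for every other subunit and group.

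The make-up of the summed subunit transcripts differed between the groups. The 6 levels summed to 224 ± 34.5 FPKM in Ep1, 183 ± 5.35 FPKM in Ep2 and 285 ± 11.8 FPKM in PBS1 (SD, n = 3 each). PFDN2 and PFDN6 made up 26.4% and 11.7% of the sum in Ep1, 17.2% and 6.41% in Ep2, and 32.5% and 17.2% in PBS1. The alpha-type pair VBP1 and PFDN5 made up 48.1 ± 5.20% of the sum in Ep1, 56.7 ± 1.002% in Ep2 and 37.9 ± 2.003% in PBS1. By mean level over all libraries the order was VBP1 at 63.9 FPKM, PFDN2 at 61.4 FPKM, PFDN5 at 42.3 FPKM, PFDN6 at 29.3 FPKM, PFDN4 at 23.8 FPKM and PFDN1 at 10.3 FPKM. VBP1 was above 88.5% of the tested genes by this mean and PFDN1 above 45.3%. That order did not hold in each library: PFDN2 was above VBP1 in Ep1_1 and the 3 PBS1 libraries and below it in the other libraries. In Ep2_2 PFDN6 was the lowest of the 6. Neighbours in the mean order such as VBP1 and PFDN2, or PFDN6 and PFDN4, thus differed by less than their spread over libraries.

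The ratio of PFDN2 to PFDN6 showed how far these subunits moved in step. It was 1.91, 2.57 and 2.57 in Ep1_1, Ep1_2 and Ep1_3, 2.65, 2.22 and 3.25 in Ep2_1, Ep2_2 and Ep2_3, and 1.77, 1.85 and 2.08 in columns PBS1, PBS2 and PBS3. PFDN6 thus covered a wider span than PFDN2 in relative terms. Set against VBP1, both spread further: PFDN2 over VBP1 was 0.975 ± 0.322 in Ep1, 0.463 ± 0.0558 in Ep2 and 1.505 ± 0.0789 in PBS1 (SD, n = 3 each). PFDN6 over VBP1 was 0.439 ± 0.230, 0.173 ± 0.0218 and 0.798 ± 0.0942 in Ep1, Ep2 and PBS1.

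**Figure D2:**
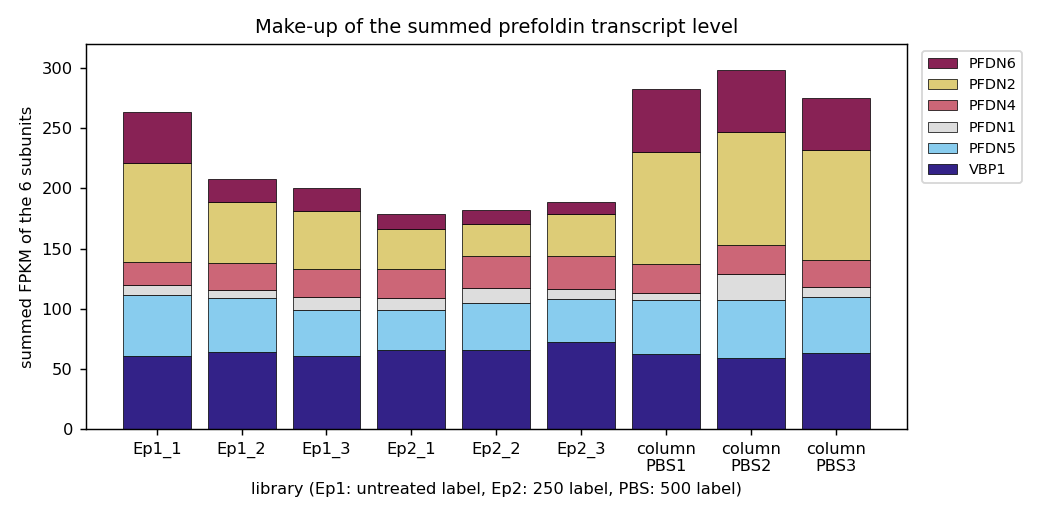
Summed level of the 6 prefoldin subunit genes in FPKM (vertical axis) in each of the 9 libraries, stacked by gene. The PFDN2 and PFDN6 segments are smallest in Ep2 and largest in Ep1_1 and PBS1, while the VBP1 segment stays between 59.4 and 72.3 FPKM.

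Profiles over the 9 libraries were compared after centring each gene on its own mean log2 level, by the root mean square difference between genes. This measure is not scaled to the size of a gene's changes, so genes that change little come out close whatever their directions. Among pairs of subunits, VBP1 and PFDN4 were the closest at 0.09, and PFDN2 and PFDN6 stood at 0.25, as did VBP1 and PFDN5. PFDN2 and PFDN6 moved in the same direction, whereas PBS1 minus Ep2 was -0.14 for VBP1 and 0.36 for PFDN5. PFDN1 and PFDN6 were the farthest apart at 0.98. Of 7580 tested genes with a symbol and a mean of at least 5 FPKM, those nearest to PFDN2 were RPL11, which encodes a protein of the large ribosomal subunit, at 0.09, and CBWD1 at 0.12. PFDN6 ranked 22 in that order. The genes nearest to PFDN6 were TMEM256, a gene of 472 bases, at 0.19, and FAM207A at 0.24, followed by PFDN2. VBP1 was nearest to LMO4 and to HSP90AB1, a cytosolic chaperone, at 0.02 and 0.03, PFDN5 to R3HDM4 and ILDR2 at 0.04 and 0.05, PFDN4 to GINS4 and NIPA2 at 0.04 each, and PFDN1 to MRPL42 and PDF at 0.32 and 0.39. The mean profile of the 6 subunits was nearest to EDF1, NDUFB2, RNASEH2C, GLMP and CHCHD1, at 0.06 for each.

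Ep1_1 carried most of the spread of Ep1 for PFDN6 and PFDN2. Relative to the mean of Ep1_2 and Ep1_3 on the log2 scale, Ep1_1 was offset by 1.11 for PFDN6, by 0.71 for PFDN2, by 0.29 for PFDN5, by -0.01 for PFDN1, by -0.05 for VBP1 and by -0.21 for PFDN4. The offset of PFDN6 ranked 17 from the highest among the 11840 tested genes and that of PFDN2 ranked 77. Against the mean of PBS1, Ep1_1 was lower by little, with differences of -0.19 for PFDN6 and -0.18 for PFDN2. Without Ep1_1, Ep2 minus Ep1 was -0.67 (SE 0.09) for PFDN6 and -0.64 (SE 0.10) for PFDN2, and PBS1 minus Ep1 was 1.30 (SE 0.09) and 0.89 (SE 0.10). For these subunits the directions were the same with and without this library, and the differences to Ep2 were smaller without it while those to PBS1 were larger. The other subunits moved less in absolute terms. Without Ep1_1, Ep2 minus Ep1 was -0.20 for PFDN5, 0.16 for PFDN4, 0.12 for VBP1 and 0.27 for PFDN1. PBS1 minus Ep1 was 0.16 for PFDN5, 0.05 for PFDN4, -0.02 for VBP1 and 0.29 for PFDN1.

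Counts of calls at an adjusted p under 0.05 in limma over all tested genes give the setting of these differences, and nothing is read from them because these values chose the genes. In Ep2 minus Ep1, 1 subunit was called higher, PFDN4, and 3 were called lower, PFDN2, PFDN5 and PFDN6, beside 27.4% of all tested genes called, 13.4% higher and 14.0% lower. The calls of PFDN4 and PFDN5 were the fragile ones, lost in 11 and 14 of 22 alternatives, that of PFDN6 was lost in 1, and that of PFDN2 in 0. Without Ep1_1, only PFDN2 and PFDN6 were called, beside 15.4% of all. In PBS1 minus Ep1 none of the 6 was called in limma, beside 0.144% of all, and 2 were called by voom on recovered fragments, which called 4.62% of all. At an unadjusted limma p under 0.05 there were 2, with no share of all genes given at that threshold. Without Ep1_1, limma called PFDN2 and PFDN6 in PBS1 minus Ep1, beside 15.8% of all. In PBS1 minus Ep2, PFDN2, PFDN5 and PFDN6 were called higher and none lower, beside 49.6% of all called, 25.4% higher and 24.2% lower. With each library's trend on gene length removed, 2 were called higher, PFDN2 and PFDN6, and 2 lower, PFDN4 and VBP1, beside 49.9% of all. The median difference of the 6 subunits was -0.08 for Ep2 minus Ep1, 0.20 for PBS1 minus Ep1 and 0.19 for PBS1 minus Ep2, and that of all tested genes was within 0.01 of 0 each time. Tested genes within the length range of the subunits had a median of -0.02, 0.06 and 0.09 in these comparisons, and with the length trend removed the subunit median was -0.03, 0.14 and 0.06. PBS1 minus Ep2 is the difference of the other comparisons, so the 3 sets of values are not independent.

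**Figure D3:**
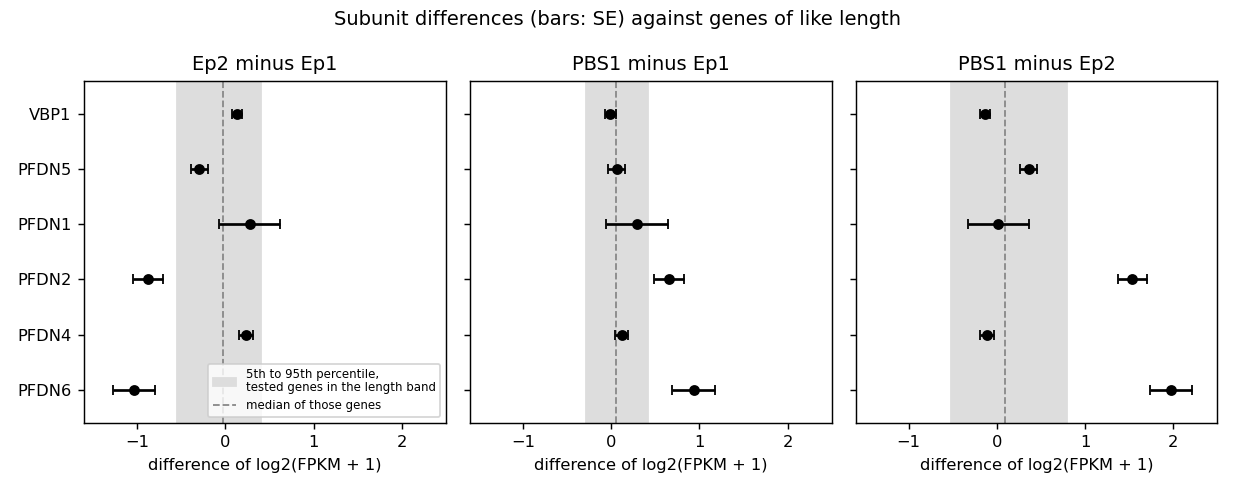
Difference of mean log2(FPKM + 1) of each subunit (points, bars are SE) in 3 panels, with Ep2 minus Ep1 at the left, PBS1 minus Ep1 in the middle and PBS1 minus Ep2 at the right; the grey band is the 5th to 95th percentile of tested genes of 643 to 1639 bases, and the dashed line is their median. PFDN2 and PFDN6 lie outside the band in each panel, and the other subunits lie inside it.

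The subunit genes are short, and in these libraries short genes differed more than long ones. Gene lengths in the deposited table were 643 bases for PFDN5, 761 for PFDN6, 780 for PFDN1, 812 for PFDN4, 816 for PFDN2 and 1639 for VBP1. In PBS1 minus Ep2 the median difference was 0.11 for tested genes of at most 500 bases and -0.08 for those over 5000 bases, and the share with a difference of at least 1 was 9.72% and 0% in these classes. In the class over 750 and up to 1000 bases, which holds 4 of the subunits, the median was 0.13, the 95th percentile was 0.90 and 3.74% of genes reached 1. Ep1_1 showed the same gradient against the other two Ep1 libraries, with a median offset of 0.13 for genes of at most 500 bases and -0.08 for those over 5000 bases. The differences were also computed after removing each library's mean trend on length. This step leaves the wider spread of short genes in place, so the part of gene length in the subunit differences was not tested. PBS1 minus Ep2 was then 1.84 (SE 0.22) for PFDN6 and 1.41 (SE 0.15) for PFDN2, and Ep2 minus Ep1 was -0.97 and -0.82. The smaller differences shifted by more of their size: PBS1 minus Ep2 was 0.22 (SE 0.09) for PFDN5, which lost its call, -0.24 (SE 0.09) for PFDN4 and -0.21 (SE 0.06) for VBP1, both then called lower, and -0.11 (SE 0.35) for PFDN1. Ep2 minus Ep1 of PFDN5 was -0.22 (SE 0.09) and lost its call as well.

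**Figure D4:**
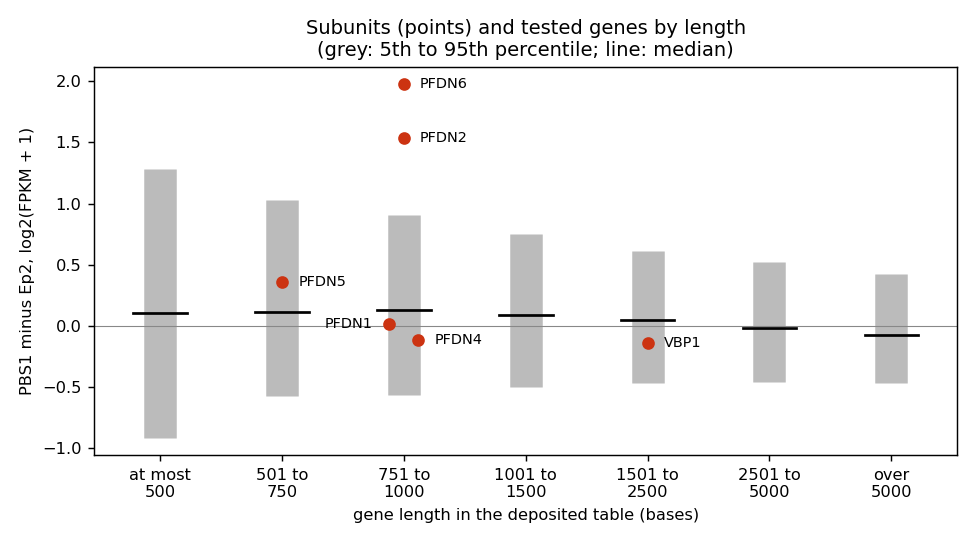
Difference of log2(FPKM + 1) for PBS1 minus Ep2 (vertical axis) by class of gene length in bases (horizontal axis); grey bars are the 5th to 95th percentile of tested genes, black lines their median, and red points the subunits. PFDN6 and PFDN2 lie above the 95th percentile of 0.90 of their class, while PFDN1, PFDN4, PFDN5 and VBP1 lie within the bars of theirs.

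Among the 2365 tested genes between 643 and 1639 bases, the 5th to 95th percentile ran from -0.52 to 0.80 in PBS1 minus Ep2, and 48 genes reached a difference of 1. PFDN6 ranked 3 and PFDN2 ranked 7 from the highest there, and they ranked 5 and 24 among all tested genes. In PBS1 minus Ep1 they ranked 1 and 13 of the 2365, and in Ep2 minus Ep1 they ranked 11 and 21 from the lowest. Of genes in this band 51.0% were called in PBS1 minus Ep2, 0.211% in PBS1 minus Ep1 and 29.7% in Ep2 minus Ep1. A narrower band of 643 to 816 bases, chosen after the lengths were seen, held 387 tested genes and the 5 short subunits. Within it PFDN6 ranked 2 and PFDN2 ranked 3 from the highest in PBS1 minus Ep2, where 18 genes reached 1. PFDN1 and PFDN4, of nearly the same length as PFDN2 and PFDN6, had differences of 0.02 (SE 0.35) and -0.11 (SE 0.08). That of PFDN1 was -0.48 without column PBS2, so its value is uncertain. The part of gene length in these differences was not tested.

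The partner lists that follow were also chosen with earlier results of these data known. Their shares and adjusted p-values therefore describe these data and are not independent support. The CCT chaperonin, which receives actin and tubulin from prefoldin, is a ring of subunits made from 8 genes, all tested. In PBS1 minus Ep2, CCT3, CCT5 and CCT7 were higher and CCT2, CCT4, CCT6A and CCT8 were lower, 7 of 8 called, while TCP1 did not pass. These calls are 87.5% of the list, beside 49.6% of all tested genes called. The largest was CCT4, with 350 ± 7.20 FPKM in PBS1 and 468 ± 7.33 FPKM in Ep2 (SD, n = 3 each), a difference of -0.42 (SE 0.06, limma adjusted p = 0.000481). CCT7 had a difference of 0.27 (SE 0.06, limma adjusted p = 0.00397). The median over the 8 was -0.09. In Ep2 minus Ep1, CCT2, CCT4 and CCT6A were higher and none was lower, with CCT4 at 0.30 (SE 0.06, limma adjusted p = 0.00630). That is 37.5% of the list, beside 27.4% of all tested genes. The call of CCT3 was lost without Ep2_2, column PBS1 or column PBS2 and after removal of the length trend. That of CCT8 was lost without Ep2_2, Ep2_3 or column PBS2 and with no intensity trend, and that of CCT5 under quantile normalization. The Ep2 minus Ep1 call of CCT2 was lost without Ep2_2 or Ep2_3.

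The prefoldin-like module and R2TP list, in which PFDN2 and PFDN6 also work in human cells, had 9 tested genes. In PBS1 minus Ep2, 5 were higher and 2 lower, with a median of 0.37. The share called was 77.8%, beside 49.6% of all tested genes. PDRG1, a beta-type subunit of the prefoldin-like module, averaged 31.9 ± 3.82 FPKM in PBS1 and 21.1 ± 0.851 FPKM in Ep2 (SD, n = 3 each), a difference of 0.57 (SE 0.08, limma adjusted p = 0.000684). RUVBL1 and RUVBL2, the ATPases of R2TP, were higher by 0.37 (SE 0.07, limma adjusted p = 0.00167) and 0.47 (SE 0.09, limma adjusted p = 0.00210). POLR2E, a subunit shared by the nuclear RNA polymerases, was higher by 0.45 (SE 0.10, limma adjusted p = 0.00557). UXT, an alpha-type subunit, was higher by 0.45 (SE 0.15, limma adjusted p = 0.0251), a call lost without Ep2_1, Ep2_3 or columns PBS2 or PBS3, with no filter on low values, and after removal of the length trend. URI1, the alpha-type scaffold of the module, went the other way, with 25.7 ± 1.06 FPKM in PBS1 and 33.9 ± 1.24 FPKM in Ep2 (SD, n = 3 each), a difference of -0.39 (SE 0.08, limma adjusted p = 0.00250). RPAP3, another gene of the list, was lower, at -0.24 (SE 0.06, limma adjusted p = 0.00527), and PIH1D1 and WDR92 did not pass. URI1 was the only gene of the list called in Ep2 minus Ep1, at 0.40 (SE 0.08, limma adjusted p = 0.00741). It makes up 11.1% of the tested list, beside 27.4% of all tested genes called.

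**Figure D5:**
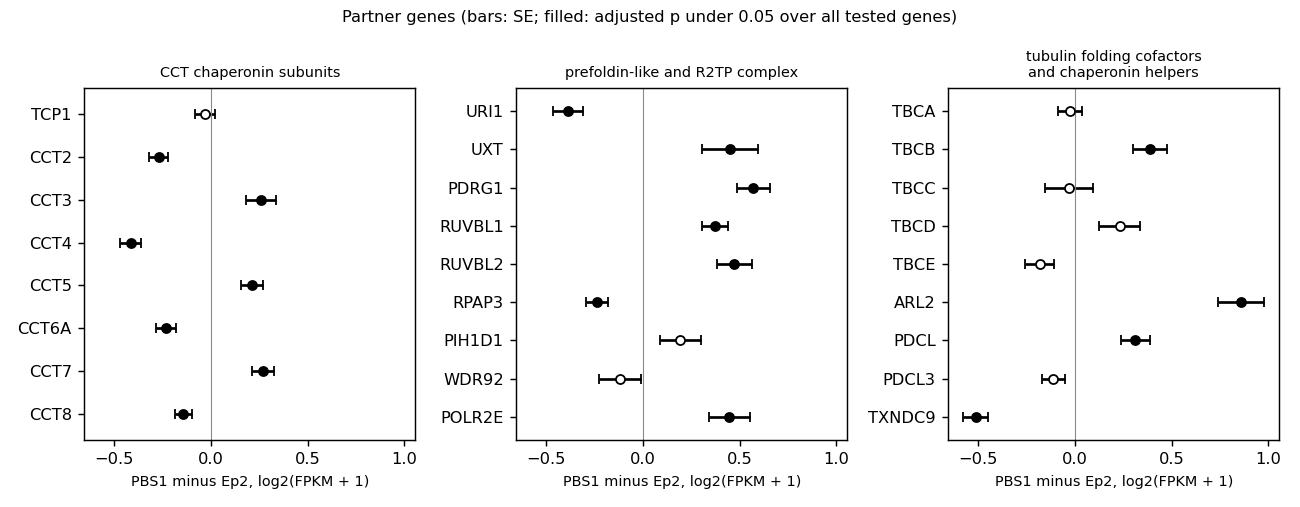
Difference of log2(FPKM + 1) for PBS1 minus Ep2 (horizontal axes) of the CCT subunits, the prefoldin-like and R2TP genes, and the tubulin folding cofactors and chaperonin helpers; bars are SE, and filled points passed an adjusted p of 0.05 over all tested genes. Members of each list lie on both sides of 0, from -0.51 for TXNDC9 to 0.86 for ARL2.

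Of the tubulin folding cofactors and chaperonin helpers, 9 were tested, and in PBS1 minus Ep2 3 were higher and 1 lower. The share called was 44.4%, beside 49.6% of all tested genes. ARL2, the small GTPase that works with the cofactor TBCD, averaged 22.5 ± 2.65 FPKM in PBS1 and 11.9 ± 0.241 FPKM in Ep2 (SD, n = 3 each), a difference of 0.86 (SE 0.12, limma adjusted p = 0.000534). TBCB, a cofactor that binds alpha-tubulin, and PDCL, a phosducin-like helper of CCT, were higher by 0.39 and 0.31. TXNDC9, another phosducin-like protein, was at -0.51 (SE 0.06, limma adjusted p = 0.000413). In Ep2 minus Ep1, TXNDC9 was higher by 0.37 (limma adjusted p = 0.00506), and ARL2 was at -0.47 (SE 0.12, limma adjusted p = 0.0169), a call lost without Ep1_1, Ep2_2 or Ep2_3. Calls in Ep2 minus Ep1 were 22.2% of the list, beside 27.4% of all tested genes.

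The clients of prefoldin differed in both directions. Of 8 tested tubulin and actin genes, TUBB3 and TUBB6 were higher and TUBB was lower in PBS1 minus Ep2. The share called was 37.5%, beside 49.6% of all tested genes. This count depended on the setting. With voom, with sample weights or with only the 6 libraries of the pair, 4 were called higher and 2 lower. No share of all tested genes is given for those settings, so nothing is read from these counts. ACTG1 and ACTB, the cytoplasmic actins, had differences of -0.13 and 0.02 and did not pass, and TUBB4B, at 0.19, did not pass. TUBB had 584 ± 12.2 FPKM in PBS1 and 673 ± 15.0 FPKM in Ep2 (SD, n = 3 each), a difference of -0.20 (SE 0.05, limma adjusted p = 0.00539). TUBB3 had 5.64 ± 0.420 FPKM in PBS1 and 3.55 ± 0.530 FPKM in Ep2 (SD, n = 3 each), a difference of 0.55 (SE 0.12, limma adjusted p = 0.00340). TUBB6 had 78.4 ± 3.97 FPKM in PBS1 and 62.9 ± 3.30 FPKM in Ep2 (SD, n = 3 each), a difference of 0.31 (SE 0.07, limma adjusted p = 0.00343). TUBB3 and TUBB6 are named because the count is small, after their values were seen. Reads of near-identical tubulin and actin genes may be split by counting, so these values are uncertain. TUBB was higher in Ep2 minus Ep1 by 0.14, a call lost on leaving out any 1 of the 9 libraries. It was the only call of the list in Ep2 minus Ep1, 12.5%, beside 27.4% of all tested genes.

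Among partners of single subunits, VHL, which VBP1 binds, averaged 17.1 ± 0.503 FPKM in Ep2 and 14.2 ± 0.854 FPKM in Ep1 (SD, n = 3 each), and Ep2 minus Ep1 was 0.26 (SE 0.07, limma adjusted p = 0.0188). That call was lost without Ep2_2 or Ep2_3. MYC, which PFDN5 binds, did not pass in any comparison. HDAC1, a deacetylase found with PFDN5 at MYC targets, was at -0.39 (SE 0.08, limma adjusted p = 0.00214) in PBS1 minus Ep2 and at 0.29 (SE 0.08, limma adjusted p = 0.0188) in Ep2 minus Ep1. The second call was lost without Ep1_1, Ep2_2 or Ep2_3.

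Over the 5 partner lists, 13 of 37 tested genes were higher and 9 lower in PBS1 minus Ep2, which is 59.5% called beside 49.6% of all tested genes. In Ep2 minus Ep1, 8 were higher and 1 lower, 24.3% beside 27.4%. In PBS1 minus Ep1 limma called 0, beside 0.144% of all tested genes, and voom called 2, beside 4.62%. At an unadjusted limma p under 0.05 there were 12. No share of all tested genes is given at that threshold, so nothing is read from this count.

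The nearest genes on either side of the subunits were read for PBS1 minus Ep2 as well. Their distances and overlaps come from the positions in the deposited table, whose genome build is not settled. PFDN2 and NIT1 start 8 bases apart on opposite strands, and NIT1 averaged 8.42 ± 0.171 FPKM in PBS1 and 7.41 ± 0.809 FPKM in Ep2 (SD, n = 3 each), a difference of 0.17 (SE 0.10, limma adjusted p = 0.197). WDR46 starts 240 bases from PFDN6 on the other strand and differed by 0.01 (SE 0.13, limma adjusted p = 0.956). RGL2, whose end faces that of PFDN6 at 819 bases, differed by 0.58 (SE 0.08, limma adjusted p = 0.000633). LOC101680949, 104 bases from PFDN5 on the same strand, averaged 63.5 ± 4.11 FPKM in PBS1 and 40.8 ± 3.54 FPKM in Ep2 (SD, n = 3 each), a difference of 0.63 (SE 0.08, limma adjusted p = 0.000469). DOK5 overlapped PFDN4 by 3638 bases on the same strand at 2.44, 2.33 and 2.36 FPKM in Ep1, Ep2 and PBS1, so reads in the overlap cannot be assigned with certainty. ESPL1, 946 bases from PFDN5, differed by 0.12 (limma adjusted p = 0.186), and LOC101688808, 1609 bases from PFDN1, by 0.31 (limma adjusted p = 0.00663). KLHDC9, 19 bases from PFDN2, was listed at 0 in all libraries, and no neighbour of VBP1 passed the filter on low values. Whether counting used strand is unknown, so reads of such close genes may be shared.

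Other measured values shared part of the pattern of PFDN2 and PFDN6. The summed epithelial markers and NKX2-1 were lower in Ep2 than in PBS1 in every library. Between PBS1 and Ep1 the summed markers overlapped in range, NKX2-1 differed by 0.06 (SE 0.11, limma adjusted p = 0.785) and KRT8 by -0.01 (SE 0.09, limma adjusted p = 0.946). KRT19 did go the same way, with 239 to 276 FPKM in PBS1 above 168 to 219 FPKM in Ep1. Its difference was 0.42 (SE 0.09, limma adjusted p = 0.0714), which did not pass. For Ep2 minus Ep1 NKX2-1 was called lower, at -0.58 (SE 0.11, limma adjusted p = 0.00667). KRT8 was called lower as well, at -0.37 (SE 0.09, limma adjusted p = 0.0128). KRT19 was at -0.22 (SE 0.09, limma adjusted p = 0.0923) in that comparison and did not pass. The part of the markers in the subunit differences was not tested.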

How the data were processed

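RNA sequencing of 9 NBL-7 libraries was analysed from 1 table of FPKM values that the authors deposited, with 1 column per library. The submitters' processing notes list Bowtie 0.12.2 and the build mm8, a mouse build, while the table names ferret genes; no coordinates are printed. For the gene counter, the annotation and the strand setting, the sources used here give nothing. The columns PBS1, PBS2 and PBS3 were tied to their group by name, not to single titles. The gene_length values in bases are the authors' deposited values. The FPKM values came out as whole fragments in 100% of entries, within 0.02 of a whole number.

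A gene entered the fit when 3 or more libraries had 1 FPKM or more. The fit used limma 3.58.1 in R 4.3.3, with an intensity trend, on log2(FPKM + 1) and with all 9 libraries in 1 fit, with Benjamini-Hochberg adjustment across the 11840 genes that entered. The fit was tested on simulated data first. Intervals are exact Poisson 95% intervals. The subunits and all lists were chosen with earlier results of these data known. Every subunit is named, and of the partner lists any gene may be named. Of tubulins and actins the plan was to name the 4 with the highest mean. TUBB3 and TUBB6 were added to these after their values were seen. For likeness the 2 nearest genes to each subunit with a mean of at least 5 FPKM and the 5 nearest to the mean profile are named. Alternatives covered the pseudocount, the filter, normalization, weights, the length trend, voom on recovered fragments, the replicate block and each library left out.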

Additional observations from a re-analysis of the deposited data

How the results depend on the processing

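PFDN2 and PFDN6 kept their directions under every alternative run. PBS1 minus Ep2 ranged from 1.41 to 1.61 for PFDN2 and from 1.69 to 2.06 for PFDN6, Ep2 minus Ep1 from -1.01 to -0.64 and from -1.24 to -0.67, and PBS1 minus Ep1 from 0.52 to 0.89 and from 0.73 to 1.30. The number of subunits called in Ep2 minus Ep1, 4 in all, was 2 with no filter on low values (11.5% of all genes called), 2 with no intensity trend (24.5%) and 2 with only the 6 libraries of the pair (19.6%), and 1 to 4 with 1 library left out (10.6% to 28.9%), against 27.4% in the fit reported; the call of PFDN6 was lost without Ep2_3. In PBS1 minus Ep1 the count of 0 became 2 with sample weights (30.3% of all genes called), 2 without Ep1_1 and Ep2_1 together (19.3%) and 2 with voom (4.62%), and was 0 to 2 with 1 library left out (at most 15.8%). In PBS1 minus Ep2 the count of 3 became 5 without Ep1_1 and Ep2_1 together (52.5%), 4 with the length trend removed (49.9%) and was 3 to 3 with 1 library left out. The median difference for PBS1 minus Ep1 was 0.39 with sample weights and 0.077 to 0.38 with 1 library left out, that for PBS1 minus Ep2 was 0.11 to 0.38 and 0.056 with the length trend removed, and that for Ep2 minus Ep1 was -0.14 to -0.04. Signs turned for small values. PBS1 minus Ep1 of VBP1 was 0.0027 with equal library medians, and -0.026 to 0.018 with 1 library left out (above 0 without Ep1_2 or column PBS2). PBS1 minus Ep1 was -0.044 to 0.16 for PFDN5 (below 0 without Ep1_3) and -0.21 to 0.65 for PFDN1 (below 0 without column PBS2). PBS1 minus Ep2 of PFDN1 was -0.013 without Ep1_1 and Ep2_1 together, -0.11 with the length trend removed and -0.0040 with voom, and -0.48 to 0.37 with 1 library left out (below 0 without Ep2_1, Ep2_3 or column PBS2). The cause was not tested, beyond the fewer libraries or genes of an alternative. Same-numbered Ep1 and Ep2 libraries had correlations of their deviations of 0.152, 0.072 and 0.065, and differently numbered ones of -0.127 to 0.073. The fit reported did not take the numbers as pairs, and whether they are pairs was not settled. With the replicate block 3 subunits were called in Ep2 minus Ep1, beside 24.6% of all genes, and PFDN5 lost its call. Not every library correlated best with its own number. No block could be made for pairs with PBS1, whose columns carry no title number. Over 384 recomputed subunit values, 332 kept direction and call, 27 lost a call, 14 gained one and 11 turned sign. The SE of PFDN1 was 0.35 with column PBS2 and 0.20 without it, and the spread in PBS1 was far beyond counting error.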
